A study of Mus musculus with 9 samples.

Results

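The genes described here are the Snail, Twist and Zeb transcription factors, which set mesenchymal identity, with a pair of mesenchymal products. Their rows were found by symbol in the authors' deposited Cuffdiff table, which names 23273 genes, and all 8 had 1 row each. They are Snai1, Snai2, Twist1, Twist2, Zeb1 and Zeb2, with Cdh2 (N-cadherin) and Vim (vimentin). The set was chosen by gene family with the Cuffdiff fold changes and q-values of these same libraries known, so the values below are a description and not an independent test. RNA came from the posterior second heart field (pSHF), the mesoderm behind the heart tube that adds cells to the atria and the inflow part of the heart. It was dissected from mouse embryos of mixed background at E10.5. Shh KO was represented by 5 libraries and Shh WT by 4 libraries of polyadenylated RNA. Shh encodes Sonic hedgehog, a secreted ligand, and the comparison asks which pSHF transcripts depend on it. The labels give neither the part of Shh removed nor whether libraries came from separate embryos. The deposited p-values therefore speak for these libraries only, and the spread among them may be technical.

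Snail factors (Snai1, Snai2) and Zeb factors (Zeb1, Zeb2) are zinc finger repressors that bind E-box sequences such as CACCTG, and Cdh1, the gene of epithelial E-cadherin, is their best known target. Twist1 and Twist2 are basic helix-loop-helix factors that bind E-boxes as dimers with E proteins. In embryos these factors are known for the change of epithelial cells into migrating mesenchyme, as in gastrulation, neural crest and the heart cushions. N-cadherin replaces E-cadherin in many mesenchymal and muscle cells, and vimentin is the usual intermediate filament of mesenchyme.

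The promoter of Snai1 is shown because Snai1 was the gene of the set that Cuffdiff called, and because the E-box that Snail factors bind occurs in it. The window is the 250 bases before the RefSeq start of Snai1 on the plus strand, chr2:167537945-167538194 (GRCm38.p6). Capitals mark the motif.
Snai1: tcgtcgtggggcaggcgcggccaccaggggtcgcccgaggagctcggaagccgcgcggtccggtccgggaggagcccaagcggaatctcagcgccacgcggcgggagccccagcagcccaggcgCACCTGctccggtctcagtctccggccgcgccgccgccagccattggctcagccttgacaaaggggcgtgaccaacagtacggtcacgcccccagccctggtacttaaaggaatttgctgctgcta
The motif CACCTG, searched also as CAGGTG on the other strand, starts 126 bases before the start site. Of all 32851 RefSeq promoter windows of this length, 17.2% held it. For 4 further genes of the set (Twist1, Twist2, Zeb2 and Vim) windows were at hand, and none of them held these letters.

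The miR-200 family is shown because these epithelial microRNAs are the best known repressors of Zeb1 and Zeb2 messages. The mature sequences are from RefSeq (GRCm38.p6), with the seed, bases 2 to 8, in capitals. Their genes lie on chromosomes 4 (Mir200a, Mir200b, Mir429) and 6 (Mir200c, Mir141).
mmu-miR-200b-3p: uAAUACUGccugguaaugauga
mmu-miR-200c-3p: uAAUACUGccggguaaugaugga
mmu-miR-429-3p: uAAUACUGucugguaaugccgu
mmu-miR-200a-3p: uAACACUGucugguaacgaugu
mmu-miR-141-3p: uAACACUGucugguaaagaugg
The seed is shared by miR-200b, miR-200c and miR-429 in 1 group of 3, and by miR-200a and miR-141 in another of 2. None of the 5 rows named for these microRNA genes (Mir200a, Mir200b, Mir200c, Mir141, Mir429) was tested in the authors' deposited table, where each has a p of 1. Libraries of polyadenylated RNA do not measure mature microRNAs.

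Snai1 transcripts were lower in Shh KO, while the 7 other genes of the set were not called in either direction. In the authors' deposited table, Snai1 had 36.4 FPKM in Shh KO, against 65.8 FPKM in Shh WT. FPKM counts fragments per transcript length and library size, and the authors give 1 pooled value per genotype, so the overlap of single libraries cannot be seen. The Shh KO level was 55.3% of the Shh WT level, and the authors' deposited table gives −0.85 as its log2 fold change (Cuffdiff p = 0.00015, q = 0.0137). A gene is called here at a Cuffdiff q under 0.05, as deposited. Of the 8 genes, 1 was called lower and 0 were called higher, and Snai1 was also the 1 gene with an unadjusted p under 0.05. Among all 13048 named tested rows with a fold change, 1.94% were called, 0.383% lower and 1.56% higher, and 7.51% had an unadjusted p under 0.05. At a q under 0.01, which 1.28% of rows reached, 0 of the 8 genes were called, and at a q under 0.10, which 2.69% reached, Snai1 alone was. In bulk tissue, fewer cells that express Snai1 and less Snai1 RNA per cell cannot be told apart.

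**Figure D1:**
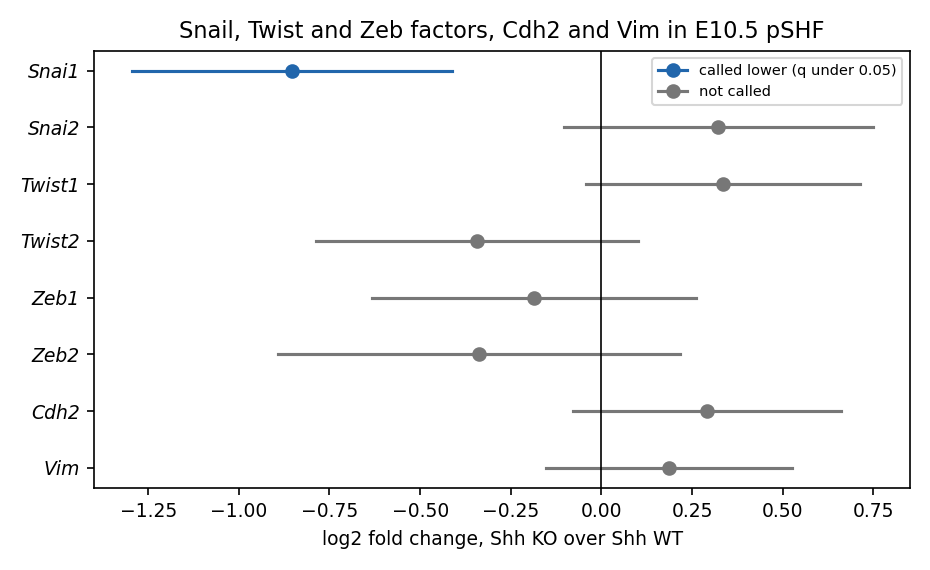
Log2 fold change (Shh KO over Shh WT, horizontal axis) of the 8 genes (vertical axis), with the 95% interval that the deposited p-value implies if the fold change over its standard error were a normal deviate. The point of Snai1 lies at −0.85 with its interval left of 0, and the intervals of the 7 other genes cross 0.

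The deposited tables hold no standard error. An approximate one was taken from each p-value, as drawn in the plot of fold changes with intervals. For Snai1 the implied standard error was 0.23, and the implied 95% interval ran from −1.30 to −0.41 on the log2 scale. This corresponds to 40.7% to 75.1% of the Shh WT level. The deposited Cuffdiff statistic of Snai1 was 1.88. In all 16918 tested rows with both values, the statistic had the sign opposite to the fold change. If that statistic were instead taken as a normal deviate, the error of Snai1 would be larger. Its 95% interval would then include no change, so the intervals given here depend on the use of the p-value. The 7 uncalled genes had fold changes between 0.19 and 0.34 in size on the log2 scale. Their intervals reach up to 0.75 and down to −0.89, so changes up to those sizes are not excluded for them.

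The other Snail factor, Snai2 (Slug), is known from neural crest and cushion mesenchyme. The authors' deposited table lists Snai2 at a log2 fold change of 0.32 (Cuffdiff p = 0.139, q = 1.00), which puts Shh KO at 125% of Shh WT. The implied interval ran from −0.10 to 0.75. The intervals of Snai1 and Snai2 taken from the p-values do not overlap, but the difference between the paralogs was not tested. Snai1 lies on chromosome 2 at 167538227 to 167542811 and Snai2 on chromosome 16 at 14705859 to 14709382 (mm10), each in a row that covers the coding gene alone.

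Twist1 and Twist2 had fold changes of opposite sign, neither of them called. Twist1, needed for head mesenchyme and limb buds, is listed in the authors' deposited table with a log2 fold change of 0.34 (Cuffdiff p = 0.0814, q = 0.905). Twist2, also called Dermo1 and known from dermis and other mesenchyme, stood at −0.34 in the authors' deposited table (Cuffdiff p = 0.130, q = 1.00). Shh KO was thus at 126% of Shh WT for Twist1 and at 78.9% for Twist2. Their implied intervals were −0.04 to 0.71 for Twist1 and −0.79 to 0.10 for Twist2, which overlap. The Twist1 row spans 2161 bases of chromosome 12 (33957671 to 33959831). The Twist2 row spans 46551 bases of chromosome 1 (91801477 to 91848027), where GENCODE also places the antisense gene Gm29100 over the first part of Twist2.

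Both Zeb genes had negative fold changes, neither past the threshold. In the authors' deposited table, Zeb1 had a log2 fold change of −0.19 (Cuffdiff p = 0.417, q = 1.00). Zeb2 stood at −0.34 in the authors' deposited table (Cuffdiff p = 0.232, q = 1.00). The Zeb2 interval, −0.89 to 0.22, was the widest of the set. These values are uncertain as gene values, because both rows hold other annotated genes. The Zeb2 row (chromosome 2, 44983634 to 45114084) is shared in the file with the microRNA gene Mir5129 and spans the antisense gene Zeb2os, and the tested row Gm13476 overlaps it. The Zeb1 row (chromosome 18, 5491501 to 5775468) also covers Gm10125, a noncoding gene on the other strand that overlaps the start of Zeb1. No source used here says whether the authors' counting used strand.

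The mesenchymal products Cdh2 and Vim had small positive fold changes without a call. The authors' deposited table gives Cdh2 a log2 fold change of 0.29 (Cuffdiff p = 0.123, q = 1.00), with an implied interval of −0.08 to 0.66. Vim stood at 0.19 in the authors' deposited table (Cuffdiff p = 0.279, q = 1.00), and its interval, −0.15 to 0.53, was the narrowest of the set. Shh KO was at 122% of Shh WT for Cdh2 and at 114% for Vim. Cdh2 lies on chromosome 18 (16588877 to 16809049) and Vim on chromosome 2 (13574311 to 13582826). Across the 8 genes, 4 fold changes were positive and 4 negative, with a median of 0.00, against a median of 0.02 over all named tested rows.

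Against the whole table, the fold change of Snai1 stood furthest to one side within the set. Of all named tested rows, 1.03% had a lower fold change than Snai1, 5.24% a lower one than Twist2 and 5.35% a lower one than Zeb2. By size in either direction, 5.30% of rows had a larger fold change than Snai1. For the 7 other genes, between 19.2% (Twist2) and 40.5% (Zeb1) of rows had a fold change larger in size.

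Snai1 was among the more abundant genes that fell. Of the 50 genes called lower, it ranked 3 by Shh KO level and 4 by Shh WT level, from the FPKM values of the authors' deposited table. Those genes had a median of 3.47 FPKM in Shh KO and 10.2 FPKM in Shh WT. By the level lost, 29.4 FPKM, Snai1 ranked 5. By fold it was among the smaller falls, since 45 of the 50 genes had a lower log2 fold change and their median was −1.43. The row of Shh itself had 5.44 FPKM in Shh KO, against 15.7 FPKM in Shh WT, in the authors' deposited table. That row runs over chromosome 5 from 28456840 to 28719209. Whether other transcripts within it add to these values was not tested.

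The called genes closest to Snai1 in both pooled levels were Osr1, Foxf1 and Hsd11b2, by distance over the log2 values of Shh KO and Shh WT. Osr1, a zinc finger gene needed for the atrial septum and kidney, had 33.5 FPKM in Shh KO, against 71.4 FPKM in Shh WT, in the authors' deposited table. Foxf1, a forkhead factor of mesoderm around the gut, had 42.5 FPKM in Shh KO, against 83.5 FPKM in Shh WT, in the authors' deposited table. Hsd11b2, an enzyme that inactivates glucocorticoids, had 52.4 FPKM in Shh KO, against 88.0 FPKM in Shh WT, in the authors' deposited table. The likeness rests on 2 pooled values per gene.

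**Figure D2:**
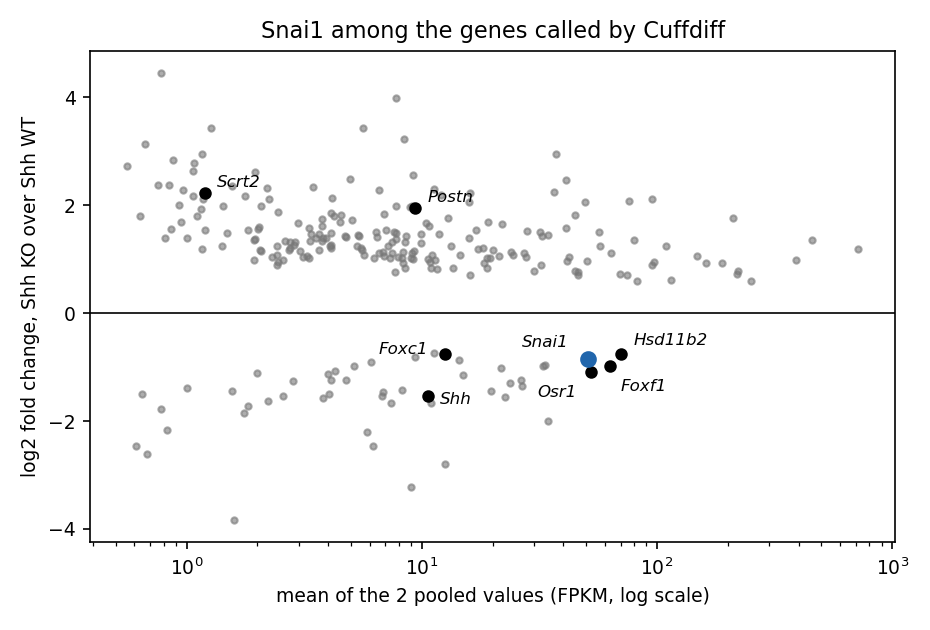
Log2 fold change (Shh KO over Shh WT, vertical axis) against the mean of the 2 pooled FPKM values (horizontal axis, log scale) for the 253 genes Cuffdiff called. Snai1 (blue) lies at −0.85 near Osr1, Foxf1 and Hsd11b2, to the right of most other genes that fell.

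Relatives and partners of the factors were also counted, from lists chosen with earlier results of these data known. Scrt1 and Scrt2 (Scratch), zinc finger repressors of the Snail superfamily found in newborn neurons, had fold changes of the opposite sign to Snai1. Scrt2 rose, with 1.97 FPKM in Shh KO, against 0.420 FPKM in Shh WT, in the authors' deposited table (log2 fold change 2.23, Cuffdiff q = 0.00554). Scrt1 had a log2 fold change of 1.69 and was not called by Cuffdiff (q = 0.0535). Of the 2 tested rows, 1 was called, which is 50% beside 1.94% of all named tested rows. The levels of Scrt2 are low, so the size of its fold change rests on the 0.420 FPKM in Shh WT. The row of Snai3 was not tested.

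Among basic helix-loop-helix factors of mesoderm related to Twist, 6 rows were tested for the 13 genes listed. Of these rows, 1 was called, which is 16.7% beside 1.94% of all named tested rows. The call was Hand1, a factor of heart and lateral mesoderm, which rose to 25.3 FPKM in Shh KO, against 11.0 FPKM in Shh WT, in the authors' deposited table. Msc (musculin, a repressor in muscle precursors) had a log2 fold change of −0.70 and Hand2 of 0.39, without a call. The E proteins that pair with Twist and the Id proteins that block such pairs gave 0 Cuffdiff calls among 7, and 0 at an unadjusted p under 0.05. Their log2 fold changes ran from −0.33 (Tcf12) to 0.20 (Id1), with a median of −0.07. Corepressors, chromatin partners and regulators of Snail stability also gave 0 Cuffdiff calls among 26 rows, and 0 at an unadjusted p under 0.05, with a median of −0.02. The lowest named value in that list was −0.34, for the scaffold Sin3a. The highest was 2.50, in 1 of a pair of rows for the kinase Gsk3b, whose other row stood at −0.17 in the authors' deposited table. Over all named tested rows, 1.94% were called and 7.51% had an unadjusted p under 0.05. In lists of these sizes, 0 calls is near the share over all rows.

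Epithelial genes, many of them known to be repressed by Snail and Zeb factors, centred near 0. Of 35 tested rows, 1 was called higher and 0 lower, which is 2.86% beside 1.94% of all rows, and the median log2 fold change was −0.04. An unadjusted p under 0.05 was reached by 7 rows, 5 higher and 2 lower, which is 20% beside 7.51% of all rows. Cdh1 itself stood at −0.25 in the authors' deposited table (Cuffdiff p = 0.237), and Epcam, a surface protein of epithelia, at 0.03. Krt19, a keratin of epithelia and mesothelium, was the called gene, with 41.9 FPKM in Shh KO, against 22.6 FPKM in Shh WT, in the authors' deposited table. The lowest value was −0.72, for Grhl2, and the highest 0.94, for Grhl3, a pair of Grainyhead factors of epithelia, neither of them called in the authors' deposited table.

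Genes of mesenchyme and its matrix were called in both directions. Of 40 tested rows, 5 were called higher and 1 lower, which is 15% beside 1.94% of all rows, and the median log2 fold change was 0.10. An unadjusted p under 0.05 was reached by 17 rows, 12 higher and 5 lower, which is 42.5% beside 7.51% of all rows. Postn (periostin, a matrix protein of cushion and valve mesenchyme) rose to 14.9 FPKM in Shh KO, against 3.88 FPKM in Shh WT, in the authors' deposited table. Lum (lumican, a proteoglycan of collagen fibrils) rose to 16.2 FPKM in Shh KO, against 5.28 FPKM in Shh WT, in the authors' deposited table. The collagens Col1a1 (0.79) and Col6a1 (0.70) and the smooth muscle actin Acta2 (0.70) were the other calls higher, with their log2 fold changes from the authors' deposited table. Foxc1, a forkhead factor of mesoderm and neural crest mesenchyme, fell to 9.34 FPKM in Shh KO, against 15.8 FPKM in Shh WT, in the authors' deposited table. Has2 (−0.52), which makes hyaluronan, and Vcan (−0.56), the proteoglycan versican that binds it, had negative log2 fold changes without a call. Fn1 (0.10), Prrx1 (−0.03) and Pdgfra (−0.06), which mark mesenchyme broadly, were not called either.

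Relatives of the mesenchymal products gave 1 call, where 1.94% of all named tested rows were called. No cadherin or catenin was called by Cuffdiff among 15 tested rows, and 2 of them, Cdh3 (0.41) and Jup (0.40), had an unadjusted p under 0.05 (13.3% beside 7.51% of all rows). The list ran from −0.34 for Cdh11, a cadherin of mesenchyme, to 0.62 for Cdh10 on the log2 scale, with a median of 0.07. Among 17 rows of intermediate filament genes, Krt19 was called higher and 0 were called lower, 5 had an unadjusted p under 0.05, all higher (29.4%), and the median was 0.34. Des (desmin, the filament of muscle) stood at 0.60 (Cuffdiff q = 0.116) and Nes (nestin), with a pair of rows, at −0.18 and 0.34 in the authors' deposited table. Krt14 had the highest value, 0.99, without a call.

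Ligands and receptors that induce such transitions gave 0 Cuffdiff calls among 30 rows. With 1.94% of all rows called, 0 in a list of this size is near that share. An unadjusted p under 0.05 was reached by 5 rows, which is 16.7% beside 7.51% of all rows. Of these 5, 3 were higher and 2 lower in Shh KO. Their median log2 fold change was −0.04. Jag1, a Notch ligand, stood at −0.66 (Cuffdiff q = 0.0599) and Fgf8 at −1.07 (q = 0.470) in the authors' deposited table. Tgfb3 stood at 0.64 and Fgf10 at 0.49 there, while Tgfb2 (0.19), Bmp2 (0.46) and Bmp4 (0.20) were also not called (log2 fold changes of the authors' deposited table).

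**Figure D3:**
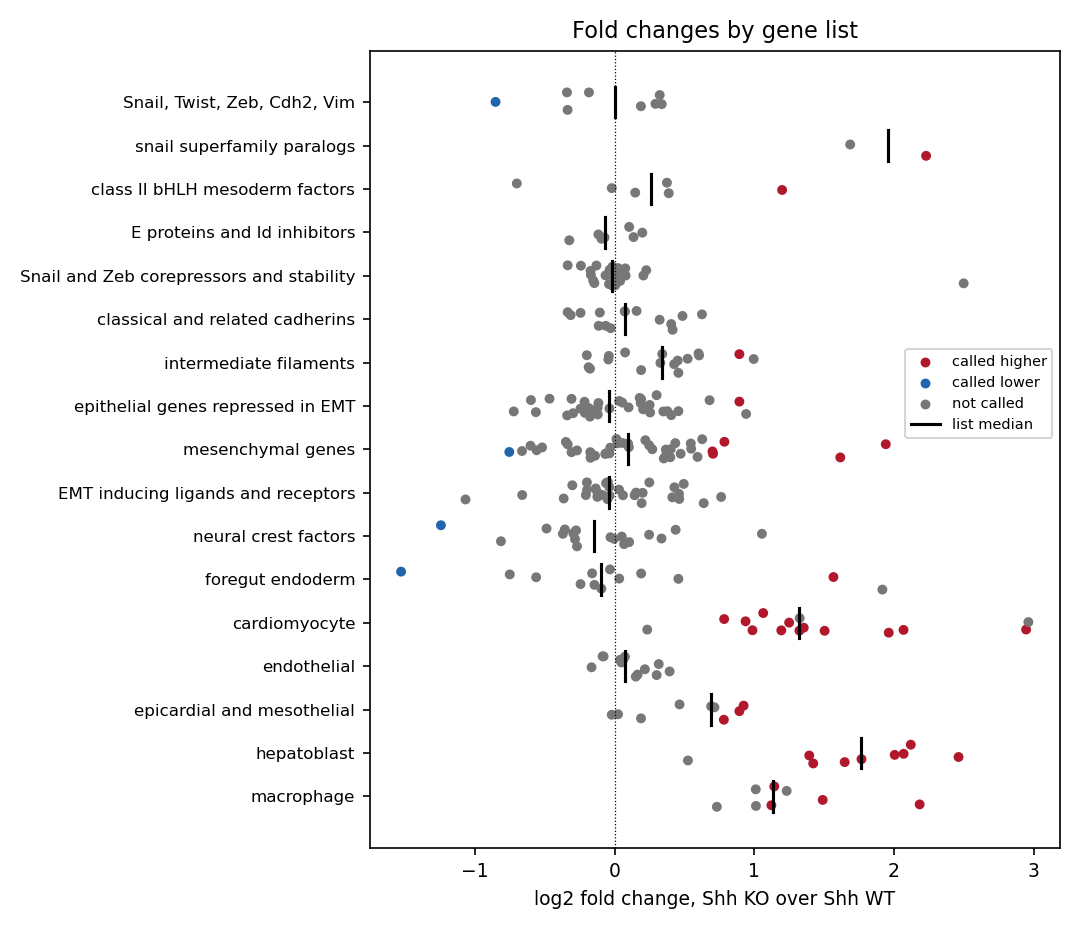
Log2 fold changes (Shh KO over Shh WT, horizontal axis) of the tested rows of each gene list (vertical axis), with called rows in colour and the list median as a black bar; EMT stands for the transition of epithelial cells to mesenchyme. The first list, the Snail, Twist and Zeb set, has a median of 0.00 and 1 call, Snai1, while cardiomyocyte, hepatoblast and macrophage markers have medians above 1.

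Markers of other cells that the dissection can hold were also called in the same comparison. Over all named tested rows, 1.56% were called higher and 0.383% lower. Cardiomyocyte markers had 12 calls higher and 0 lower among 15 rows (median log2 fold change 1.32), and hepatoblast markers 8 higher and 0 lower among 9 (median 1.77). Macrophage markers had 4 calls higher among 8 (median 1.13) and epicardial markers 3 among 9 (median 0.69), with 0 lower in each. Neural crest factors, from cells that also express Snai2 and Twist1, had 1 call lower and 0 higher among 18 rows (median −0.15). This is 5.56% beside 1.94% of all rows called in either direction, and it rests on 1 row. The call was Ret, a receptor of enteric crest, with 2.44 FPKM in Shh KO, against 5.78 FPKM in Shh WT, in the authors' deposited table. Foregut endoderm markers had 1 call in each direction among 13 (median −0.10), Foxa3 higher and Shh lower. An unadjusted p under 0.05 was reached by 5 of these rows, which is 38.5% beside 7.51% of all rows. Of these 5, 2 were higher (Foxa3 and Krt8) and 3 lower (Shh, Nkx2-1 and Foxa2). The log2 fold changes of Nkx2-1 (−0.75), Foxa2 (−0.56) and Krt8 (0.46) were not called. Shh is the gene knocked out, so in its row an effect of the genotype and a change in the endoderm cannot be told apart. Levels of these lists in single libraries were not used here, and their part in the values of Snai1 and the matrix genes was not tested. Of genes known from the pSHF itself, Osr1 and Foxf1 were detected in both genotypes at the levels given above. Both were called lower in Shh KO (log2 fold changes of −1.09 and −0.98, Cuffdiff q = 0.00554 each), and they were named for their likeness to Snai1.

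The genes next to Snai1 did not share its call. The 3 nearest tested genes on each side (Slc9a8, Rnf114, Spata2, Ube2v1, Tmem189 and Cebpb) had log2 fold changes from −0.28 to 0.66 in the authors' deposited table, with a median of −0.05. The nearest of them, Spata2 (−0.14) and Rnf114 (0.02), end 22.1 kb before Snai1. Cebpb, 146 kb beyond Snai1, had the highest value and was not called (Cuffdiff q = 0.813). Over all 8 genes, 0 of 48 neighbouring rows were called by Cuffdiff, beside 1.94% of all named tested rows. An unadjusted p under 0.05 was reached by 1 neighbour, Kif5b beside Zeb1, where 7.51% of all rows reached it. The 48 rows had a median of −0.03 and values from −0.72 to 0.67. Neighbours differ in distance, and those of Zeb2 lie up to 5793 kb away.

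**Figure D4:**
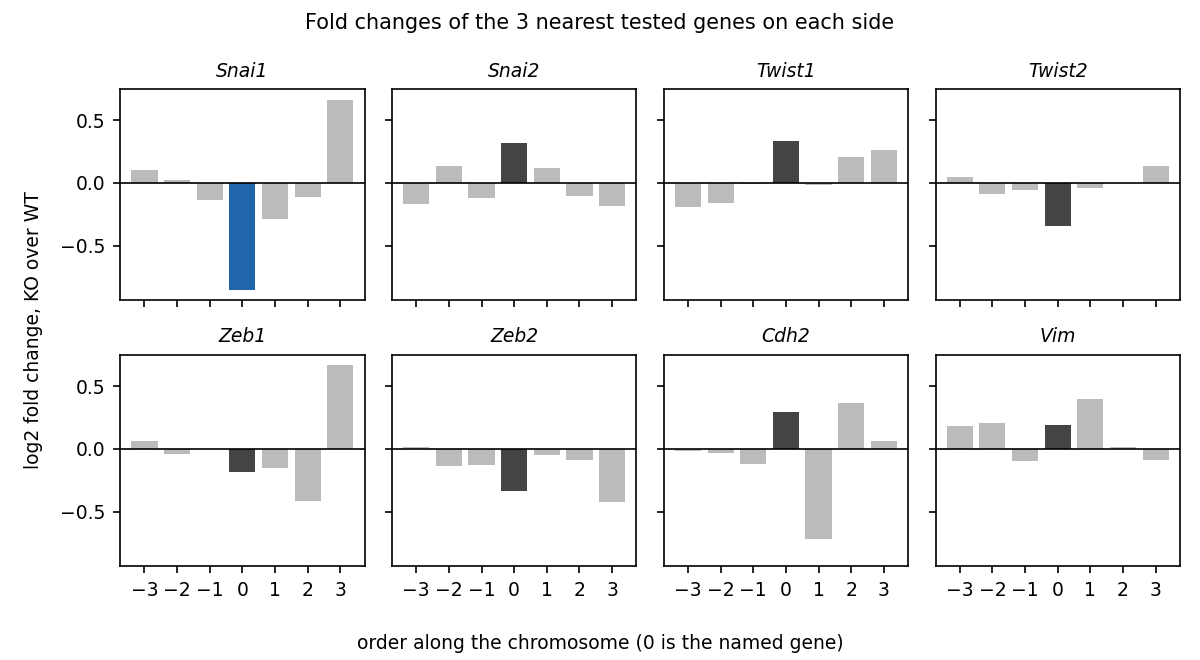
Log2 fold change (Shh KO over Shh WT, vertical axis) of each gene (dark bar, blue where called) and of the 3 nearest tested genes on each side (grey bars), by order along the chromosome (horizontal axis). The blue bar of Snai1 at −0.85 stands beside neighbours between −0.28 and 0.66.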

How the data were processed

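PolyA RNA was sequenced from pSHF of 5 Shh KO and 4 Shh WT libraries, as stranded single-end reads of 50 bp per the labels' protocols. Per the submitters' processing notes, TopHat2 2.0.10 and Cuffdiff 2.1.1 were used, with build mm9 named and no options stated in the sources used here. The full deposited table holds 27198 rows with the authors' log2 fold change, test statistic (a Cuffdiff score), p-value and q-value. The shorter deposited table holds 253 genes with 1 pooled FPKM value per genotype, their ratio (fold) and its log2, p-value and q-value. There are no values per library, so depth is unknown and no SD can be given.

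Rows with p under 1 (16944) were taken as tested, and Benjamini-Hochberg adjustment returned the q-value of all 16944 within 0.0001. The 13048 tested rows with a gene name and a usable fold change form the background. The fold change is Shh KO over Shh WT, since it equals the log2 FPKM ratio within 1.07e-05 for 253 genes. Row positions overlapped the GRCm38 (mm10) RefSeq gene for 99.8% of 20458 symbols and are printed as mm10, with 1 added to starts.

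A planned test on values per library could not be made, so the authors' Cuffdiff calls at q under 0.05 are read as deposited. Intervals were derived from the p-values with scipy 1.17.1. The genes and lists were chosen with earlier results of these data known. Named were all 8 genes, the 3 nearest tested rows on each side, the 3 called genes nearest in pooled FPKM, and of each list mainly the called genes or its highest and lowest values; other list members named were chosen after their values were seen. The miR-200 family and the E-box motif were also chosen then. Promoters and microRNAs were matched by symbol in RefSeq tables (5 of 8 genes had a promoter). Alternatives varied the q threshold, the adjustment, overlapping rows, centring and an added FPKM. A planned list of markers is not reported here.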

Additional observations from a re-analysis of the deposited data

How the results depend on the processing

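The call of Snai1 depends on the threshold. Of the 8 genes, 0 were called at a Cuffdiff q under 0.01 and 0 with Benjamini-Yekutieli adjustment, against 1 as deposited, and 1 had an unadjusted p under 0.05. The Benjamini-Yekutieli q of Snai1 was 0.142. The count was 1 at a q under 0.10, with adjustment over named rows alone (Snai1 q = 0.0110), and without the row that overlaps another. The log2 fold change of Snai1 was −0.88 relative to the median of all rows, −0.84 with 1 FPKM added and −0.85 with 0.1 FPKM added, and no sign in the set turned on centring. Over the 9 lists of relatives, partners and targets, 8 of 168 distinct rows were called higher and 1 lower. This is 5.36% beside 1.94% of all named tested rows. At a q under 0.01 the counts higher and lower were 4 and 0, and at a q under 0.10 they were 10 and 2. Mesenchymal genes called higher numbered 2 at a q under 0.01, and no mesenchymal gene was called lower there. No paired analysis was possible because the tables hold 1 pooled value per genotype, and leaving out single libraries was not possible for the same reason. Depth is unknown, so what it limits could not be assessed.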

Other observations

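Endothelial markers, whose cells give rise to cushion mesenchyme, gave 0 Cuffdiff calls among 13 rows, beside 1.94% of all named tested rows. An unadjusted p under 0.05 was reached by 1 row, which is 7.69% beside 7.51% of all rows. The median log2 fold change was 0.07. The highest value was 0.39, in the row shared by Egfl7 and Mir126, and the lowest −0.17, for the endothelial factor Erg, neither of them called in the authors' deposited table.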
